A study of Canis lupus familiaris with 6 samples.

Results

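The major histocompatibility complex (MHC) class II genes of MDCK cells, a canine kidney epithelial line, were followed together with their transcriptional activator CIITA. The set held 10 genes of the 41401 gene symbols in the files, picked by symbol: the chains DLA-DRA, DLA-DQA1 and DLA-DQB1, the peptide-loading genes DLA-DMA, DLA-DMB, DLA-DOA and DLA-DOB, the invariant chain gene CD74, and the regulators CIITA and RFX5. They were picked because class II genes were higher after knockdown of PRL1, so their knockdown values are given as a description, with no test. All 10 symbols were present in the files, and 8 had a mean of at least 1 FPKM (fragments scaled by transcript length and library size) over the libraries. DLA-DOA and DLA-DOB did not reach it.

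The study measured RNA in 6 libraries, 1 per line and treatment. The lines were wild-type MDCK and 2 clones with the genotype PRL2-/-; PRL1+/-, and each received either control siRNA or siRNA against PRL1, with RNA taken 18 h after the second of its transfections. Each clone is a single clonal line, and how its alleles were disrupted is not given in the sources used here. All groups went through siRNA transfection, and no untransfected cells are among them.

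MHC class II molecules present peptides from the endosomal route to CD4 T cells. Each is a pair of an alpha and a beta chain, which assembles in the endoplasmic reticulum on the invariant chain CD74. In late endosomes cathepsins degrade CD74, and DM exchanges the remaining fragment for a peptide, while DO restrains DM. Transcription depends on CIITA, a coactivator that does not itself bind DNA and docks on a promoter complex of RFX (RFX5, RFXAP and RFXANK), CREB and NF-Y. Dendritic cells, macrophages and B cells carry class II constitutively, and many epithelial cells, those of the kidney tubule included, do so after interferon-γ, which acts through the kinases JAK1 and JAK2 and the factor IRF1 on the CIITA gene.

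The targeted transcript PTP4A1, which encodes PRL1, was lower after its siRNA in every line, at 33.1 FPKM against 63.5 in wild type, at 37.8 against 61.7 in clone 1, and at 37.8 against 69.9 in clone 2. Relative depth, read from low values, was between 0.765 and 1 of that of the wild-type control library, and absolute depth is unknown. Epithelial markers were abundant: the 12 genes listed summed to between 2123 and 3298 FPKM, although the kidney factor EMX2 stayed at or below 0.451 FPKM. The 19 leukocyte markers summed to 8.42 to 9.45 FPKM in control libraries and 7.47 to 10.7 after knockdown, most of it CD14 (4.73 to 7.21 FPKM). PTPRC, MS4A1, CD79B, ITGAX, CD3E and CD3D were listed at 0 in every library, and ITGAM and CSF1R did not exceed 0.0156 FPKM. Not all markers were so low, since FLT3 reached 1.05 FPKM and CORO1A 1.02 FPKM. Neither of the 2 markers with a mean of at least 1 FPKM passed the test after knockdown.

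The classical class II chains were present under control siRNA and were higher under PRL1 siRNA in all 3 lines. DLA-DRA, the alpha chain of DR, was at 172 FPKM under control siRNA and 281 under PRL1 siRNA in wild type, at 348 and 620.0 in clone 1, and at 168 and 337 in clone 2. The ratios of knockdown to control were 1.63, 1.78 and 2.01 in wild type, clone 1 and clone 2. Clone 1 was high under both siRNAs, and its control library lay above both wild-type libraries and above the knockdown library of clone 2, so the 3 control and 3 knockdown values overlap. In bulk RNA a larger share of cells with class II and more class II RNA per cell cannot be told apart.

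The beta chain of DR, listed as HLA-DRB1 in the files with DLA-DRB1 as a RefSeq synonym, is not among the 10. It was at 114 and 197 FPKM in wild type, at 229 and 434 in clone 1, and at 108 and 243 in clone 2. In limma with line as block it rose by 0.95 ± 0.07 log2 units (SE, n = 3 lines, adjusted p = 0.00157; 0.314 in the unpaired fit), higher in 3 of 3 lines. That blocked fit called 17.6% of all 12125 genes tested as higher and 21.7% as lower, whereas the unpaired fit called 0%. The ratio of DLA-DRA to HLA-DRB1 was nearly fixed, between 1.39 and 1.55 over the 6 libraries. Class II genes were picked for their rise in this contrast, so the test of HLA-DRB1 gives no independent support.

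The DQ pair showed larger relative differences than DR. DLA-DQA1, the alpha chain, was at 29.9 and 67.1 FPKM in wild type, at 103 and 256 in clone 1, and at 44.4 and 141 in clone 2, which are ratios of 2.25, 2.48 and 3.18. DLA-DQB1, the beta chain, was at 2.09 and 6.82 FPKM in wild type, at 8.75 and 28.2 in clone 1, and at 3.40 and 11.3 in clone 2. Its ratios of 3.26, 3.22 and 3.33 were the highest of the members in each line and varied little between lines. For both chains the clone 1 control library exceeded the wild-type knockdown library, and control and knockdown values overlap across lines.

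DLA-DQB1 was listed far below its partner. The ratio of DLA-DQA1 to DLA-DQB1 ran from 9.07 to 14.3, against 1.39 to 1.55 for the DR pair. Class II beta chains are highly polymorphic, and whether fragments of the MDCK alleles were all assigned to these symbols was not tested. The balance between DR and DQ also differed, with DLA-DRA at 5.77 times DLA-DQA1 in the wild-type control library and 4.19 times after knockdown. In clone 1 the corresponding ratios were 3.37 and 2.43, and in clone 2 they were 3.78 and 2.39.

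**Figure D1:**
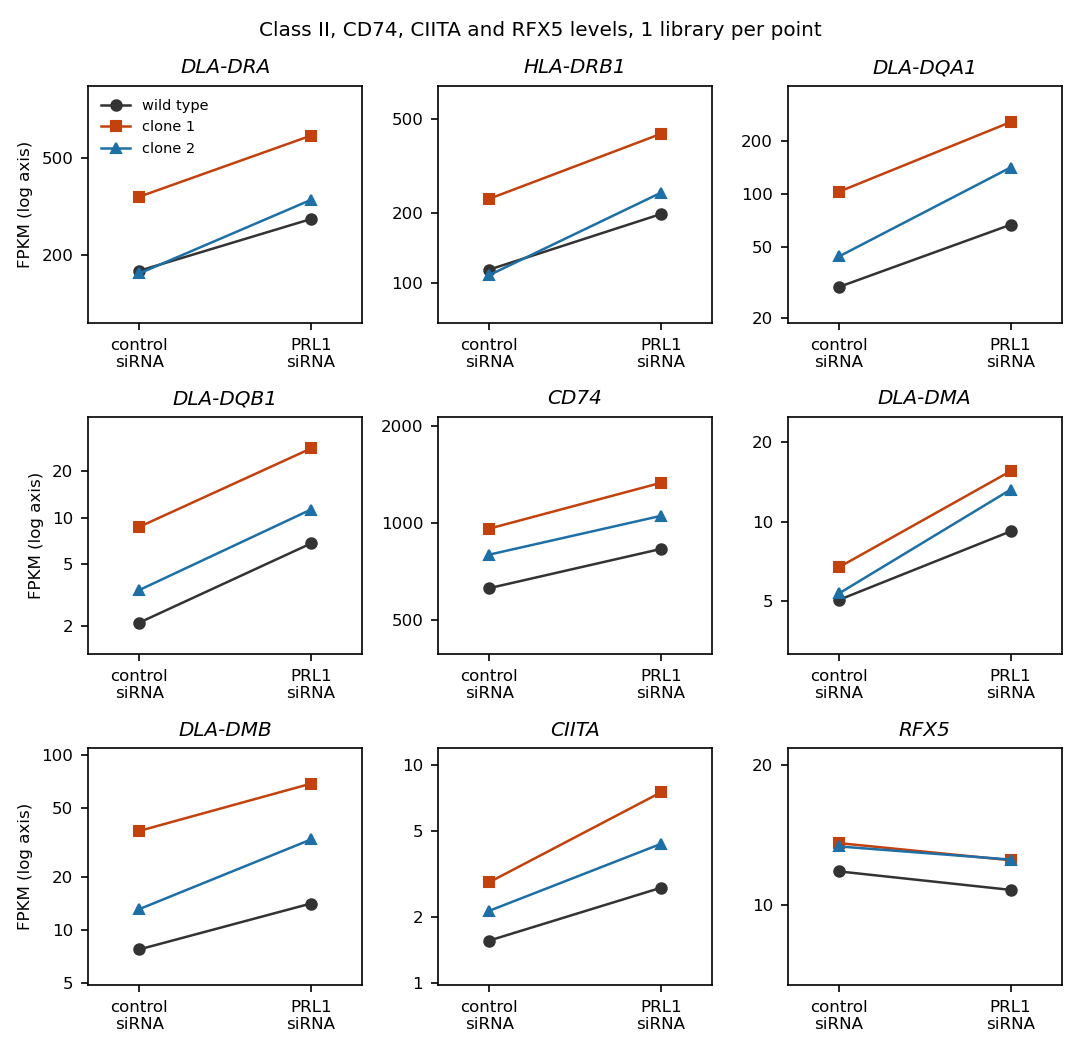
FPKM on a log axis under control siRNA and PRL1 siRNA for the 8 members with a mean of at least 1 FPKM and for HLA-DRB1, with 1 library per point and a line joining the libraries of wild type, clone 1 and clone 2. All genes but RFX5 run upwards in every line, and clone 1 is highest in every panel under control siRNA.

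CD74, the invariant chain, was the most abundant member and showed the smallest relative rise in level among the 7 that were higher in every line. It was at 629 and 831 FPKM in wild type, at 962 and 1333 in clone 1, and at 799 and 1053 in clone 2, with ratios of 1.32, 1.39 and 1.32. By level it stood between rank 24 and rank 95 of all symbols in a library. Because the chains differed more than CD74, the ratio of CD74 to DLA-DRA was lower after knockdown in each line: 3.65 and 2.96 for wild type, 2.77 and 2.15 for clone 1, and 4.75 and 3.12 for clone 2.

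DM is the peptide exchange factor, and both of its chains were higher after knockdown. DLA-DMA was at 5.07 and 9.19 FPKM in wild type, at 6.73 and 15.5 in clone 1, and at 5.36 and 13.2 in clone 2. It was the only member for which all 3 knockdown libraries lay above all 3 control libraries, as did 12.6% of all genes tested. DLA-DMB was at 7.75 and 14.2 FPKM in wild type, at 36.9 and 68.8 in clone 1, and at 13.2 and 33.0 in clone 2. Its control values spanned more than those of its partner, with clone 1 at 4.77 times wild type, against 1.33 times for DLA-DMA.

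The ratio of DLA-DMB to DLA-DMA thus differed more between lines than between siRNAs. Under control siRNA and then PRL1 siRNA it was 1.53 and 1.54 for wild type, 2.46 and 2.50 for clone 2, and 5.49 and 4.45 for clone 1. No test was made of this ratio.

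The DO genes, which encode the inhibitor of DM and are known mainly from B cells and thymic epithelium, stayed near the floor. DLA-DOA did not exceed 0.0456 FPKM and DLA-DOB did not exceed 0.227 FPKM in any library. Neither showed a shared direction: DLA-DOA was higher after knockdown in 1 of 3 lines and DLA-DOB in 2 of 3. At such levels a few fragments set the value, so a difference in DO was not detectable at this depth.

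CIITA, the coactivator, was listed at 1.56 and 2.73 FPKM in wild type, at 2.90 and 7.50 in clone 1, and at 2.14 and 4.35 in clone 2. The ratios were 1.75, 2.59 and 2.03, and its 2 highest values were those of the clone knockdown libraries. Clone 1 had the largest FPKM ratio for CIITA, as it did for CD74 (1.39, against 1.32 in each other line), whereas clone 2 had the largest for DLA-DRA, DLA-DQA1, DLA-DQB1, DLA-DMA and DLA-DMB. For DLA-DQB1 the ratios were close, and on the log2(FPKM + 1) scale its difference was larger in clone 1 (1.58) than in clone 2 (1.48).

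RFX5, the DNA-binding subunit of RFX, did not share the direction of the others. It was at 11.8 and 10.8 FPKM in wild type, at 13.6 and 12.5 in clone 1, and at 13.4 and 12.5 in clone 2, slightly lower after knockdown in each line. The ratios lay between 0.913 and 0.937. Although it was listed with genes picked for a rise, RFX5 goes against that description, and the DO genes were too low to be read either way.

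Read over the set, 7 of 10 members were higher after knockdown in all 3 lines, a pattern that 31.6% of all genes tested also showed. On the log2(FPKM + 1) scale the 8 members with a mean of at least 1 FPKM had medians of 0.73 in wild type, 0.99 in clone 1 and 1.08 in clone 2. Medians over all genes tested were -0.0038, -0.012 and -0.018. At least 1.5-fold higher on that scale were 5 of the 8 in wild type, 6 in clone 1 and 6 in clone 2, against 2.09%, 2.71% and 2.14% of all genes. These shares come from the contrast that picked the members. The member nearest above that threshold was DLA-DRA in wild type (0.70), and the nearest below it was CIITA in wild type (0.54).

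**Figure D2:**
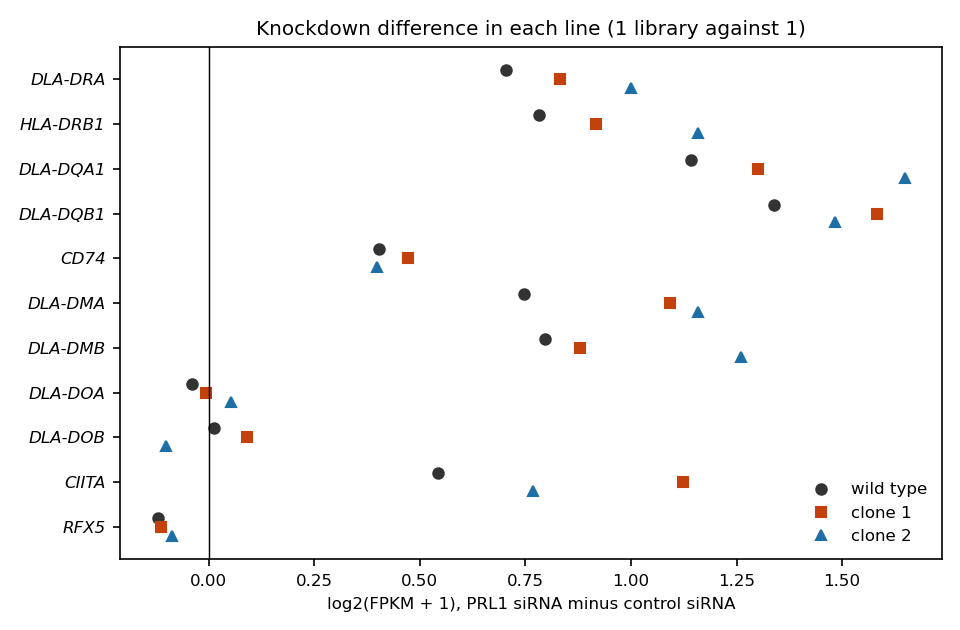
Difference in log2(FPKM + 1) between PRL1 siRNA and control siRNA for each member and HLA-DRB1, with 1 point per line, each from 1 library against 1. The DQ genes lie between 1.14 and 1.65, CD74 between 0.40 and 0.47, and RFX5 and the DO genes near 0.

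The class II genes sit together in the genome, apart from CD74, CIITA and RFX5. In the RefSeq order of assembly UU_Cfam_GSD_1.0, used for neighbourhood only, they run from DLA-DRA to DLA-DOA with genes of class I antigen processing between them. TAP2, PSMB8, TAP1 and PSMB9, which encode the peptide transporter and immunoproteasome subunits, lie between DLA-DOB and DLA-DMB. All 4 rose after knockdown in limma with line as block (adjusted p = 0.0389, 0.00969, 0.0137 and 0.00632; 0.187, 0.225, 0.159 and 0.106 unpaired), and were higher in 3 of 3 lines. Their changes were 0.17 ± 0.05, 0.43 ± 0.08, 0.33 ± 0.07 and 0.57 ± 0.09 log2 units (SE, n = 3 lines). Only PSMB9 also passed without clone 1 and without clone 2. Within each line all 4 differences lay below those of the DR, DQ and DM genes. Class II genes were picked for a rise in this contrast, so that order was largely set by the choice. The fit with line as block called 17.6% of all genes as higher.

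Not every gene between the class II genes rose. BRD2, a chromatin reader between DLA-DMA and DLA-DOA, fell by 0.17 ± 0.04 (SE, n = 3 lines, limma with line as block, adjusted p = 0.0176; 0.230 unpaired), a call lost without clone 1 (0.0862) or clone 2 (0.0640). BTNL2, next to DLA-DRA on its other side, was listed at 0 in every library. DLA-DOB and DLA-DOA, also inside the region, were too low to show a difference.

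**Figure D3:**
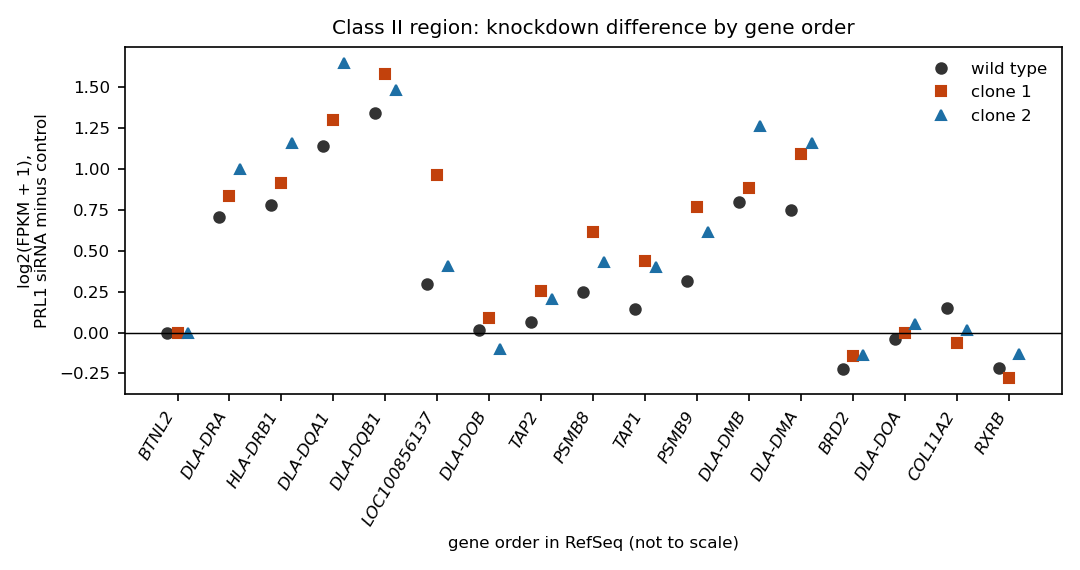
Difference in log2(FPKM + 1) between PRL1 siRNA and control siRNA in each line for 17 protein-coding genes in RefSeq order, evenly spaced and not to scale. The DR and DQ genes and the DM genes form peaks, with the DO genes, BRD2 and the genes outside the region near or below 0. Between the peaks, LOC100856137 (0.29 to 0.96), TAP2, PSMB8, TAP1 and PSMB9 (0.32 to 0.76) lie above 0 in every line.

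The level of class II differed between lines irrespective of the siRNA. This was tested in limma with a model of line and siRNA over all 6 libraries (n = 2 libraries per line). The model sets the mean knockdown difference apart. The 2 libraries of a line received different siRNAs, so p-values measure how the knockdown difference varied between lines, mixed with technical spread. Spread between libraries of the same line and siRNA was not measured. Clone 1 was above wild type in all 8 members with a mean of at least 1 FPKM, a comparison added after the data were seen and one that called 16.7% of all genes as higher. The differences were largest for DLA-DMB (2.16 ± 0.11 log2 units, SE, adjusted p = 0.000887), DLA-DQA1 (1.83 ± 0.12, adjusted p = 0.00136) and DLA-DQB1 (1.78 ± 0.07, adjusted p = 0.000491). DLA-DRA stood 1.07 ± 0.07 higher (adjusted p = 0.00167), and HLA-DRB1 1.07 ± 0.09 (adjusted p = 0.00264).

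Among the regulators and accessory genes, clone 1 exceeded wild type by 0.90 ± 0.14 for CIITA (SE, limma, adjusted p = 0.0115), by 0.65 ± 0.04 for CD74 (adjusted p = 0.00136), by 0.52 ± 0.11 for DLA-DMA (adjusted p = 0.0226) and by 0.19 ± 0.05 for RFX5 (adjusted p = 0.0388). The CIITA call was lost without the clone 1 knockdown library (0.0811). The DLA-DMA call was lost without the clone 1 control library (0.110) or its knockdown library (0.193). That of RFX5 was lost without any one of the 6 libraries (0.0833 to 0.248). Over all genes in either direction, 3001 were called, but 1958 and 1820 without the wild-type control or knockdown library, and 367 and 241 without those of clone 1.

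Clone 2 lay between the other lines in DQ and DM and was not called different from wild type in DR. It passed above wild type for DLA-DMB (0.93 ± 0.11, SE, limma, adjusted p = 0.00382), DLA-DQA1 (0.81 ± 0.12, adjusted p = 0.00602), DLA-DQB1 (0.58 ± 0.07, adjusted p = 0.00411), CD74 (0.34 ± 0.04, adjusted p = 0.00361) and RFX5 (0.18 ± 0.05, adjusted p = 0.0365). This comparison, also added later, called 18.6% of all genes as higher. For DLA-DRA the difference was 0.11 ± 0.07 (adjusted p = 0.285), and for HLA-DRB1 it was 0.11 ± 0.09 (adjusted p = 0.378). CIITA (0.41 ± 0.14, adjusted p = 0.0781) and DLA-DMA (0.27 ± 0.11, adjusted p = 0.104) did not pass, although CIITA did without the wild-type control library (0.0472), the clone 1 control library (0.0455) or the clone 1 knockdown library (0.0465), and DLA-DMA did without the wild-type control library (0.0169). RFX5 failed without any one library (0.0772 to 0.214). Over all genes in either direction, 3901 were called, but 2595 without the wild-type knockdown library, 1634 without the clone 2 control library and 1553 without the clone 2 knockdown library.

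Set against each other, clone 2 was below clone 1 in 5 of the 8, where 7.79% of all genes were called lower and 14.5% in either direction. DLA-DRA was lower by a log2 difference of -0.96 ± 0.07 (SE, limma, adjusted p = 0.00194), DLA-DQB1 of -1.20 ± 0.07 (adjusted p = 0.00113), DLA-DQA1 of -1.02 ± 0.12 (adjusted p = 0.00614), DLA-DMB of -1.23 ± 0.11 (adjusted p = 0.00338) and CD74 of -0.30 ± 0.04 (adjusted p = 0.0103). HLA-DRB1 gave -0.95 ± 0.09 (adjusted p = 0.00353). CIITA (-0.49 ± 0.14, adjusted p = 0.0754), DLA-DMA (-0.25 ± 0.11, adjusted p = 0.175) and RFX5 (-0.0089 ± 0.05, adjusted p = 0.920) did not pass.

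These clone calls differ in whether they held with 1 library left out. Leaving out a library also leaves fewer residual degrees of freedom, so a lost call need not mean a smaller difference. Where calls were lost, the differences were -0.98 and -1.07 for DLA-DQA1, -0.93 and -0.98 for HLA-DRB1, -1.16 for DLA-DMB and -0.34 to -0.27 for CD74. DLA-DRA and DLA-DQB1 passed whichever library was left out. The call of DLA-DQA1 was lost without the clone 1 control (adjusted p = 0.0839 by limma) or knockdown library (0.0680), that of HLA-DRB1 likewise (0.0550 and 0.0511), and that of DLA-DMB without the clone 1 control library (0.0521). CD74 failed without any one of the 4 clone libraries (0.0611 to 0.172). DLA-DMA passed without the wild-type control library (0.0400) or the wild-type knockdown library (0.0412). Over all genes, 1760 were called, but 320 without the clone 1 control library, 299 without the clone 1 knockdown library, 531 without the clone 2 control library and 459 without the clone 2 knockdown library. With all 27931 genes above 0 tested in place of those with a mean of at least 1 FPKM, every call of a member between lines was lost (adjusted p from 0.0581 to 0.166), as were those between the clones in a model without a siRNA term (0.505 to 0.756).

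**Figure D4:**
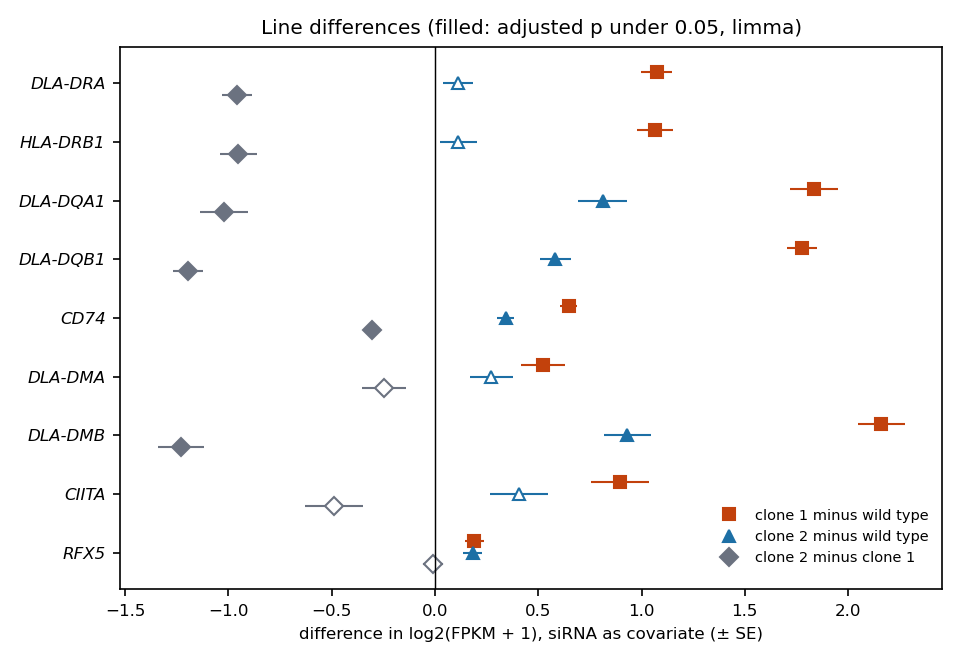
Differences between lines in log2(FPKM + 1) with siRNA as covariate, with bars for ± SE and filled symbols for an adjusted p under 0.05. Clone 1 lies to the right of clone 2 for every gene, by least for RFX5, and DLA-DMB shows the largest distance from wild type in both clones.

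Taken as genotypes, both clones against wild type, no member passed. Over both siRNAs the 8 differences were all above 0, from 0.19 ± 0.05 for RFX5 to 1.55 ± 0.54 for DLA-DMB (SE, 4 mutant and 2 wild-type libraries, limma, adjusted p = 0.149 and 0.210). Under control siRNA alone they ran from 0.18 ± 0.07 for RFX5 to 1.41 ± 0.77 for DLA-DMB (adjusted p = 0.400 and 0.509). Both contrasts called 0% of all genes, with 2831 and 1632 genes at an unadjusted p under 0.05. The spread in these contrasts is the difference between the clones, and with 1 wild-type line the genotype and the individual line cannot be told apart.

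Other genes of the class II pathway were read in limma with line as block, which called 39.3% of all genes. The planned fit was unpaired, and in it 0 genes of any list passed and 2575 of all genes had an unadjusted p under 0.05. The blocked fit was an alternative read with that outcome known, so its calls are weaker than those of a planned test. Of 15 genes of the promoter complex and the CIITA cofactors, 1 rose, 2 fell and 12 did not pass, and the median was -0.011 against -0.010 over all genes. RFXANK, the ankyrin subunit of RFX, rose from 11.3 to 15.2 FPKM in wild type, 12.5 to 14.4 in clone 1 and 12.8 to 16.3 in clone 2 (0.30 ± 0.05, SE, n = 3 lines, adjusted p = 0.00922). That call was lost without clone 2 (0.0532). NFYC, a subunit of NF-Y, fell by 0.24 ± 0.04 (adjusted p = 0.0105) and the acetyltransferase gene CREBBP fell by 0.20 ± 0.05 (adjusted p = 0.0262). Neither passed without clone 1 (0.0862 and 0.0834) or without clone 2 (0.0638 and 0.131). With clone as block, a fit on the 4 clone libraries that called 33.3% of all genes (14.3% higher and 19% lower), 1 gene of the list rose and 2 fell. The falls there were NFYC (adjusted p = 0.0159) and the acetyltransferase gene KAT2B (0.0495, chosen after its values were seen; 0.0973 with line as block), while CREBBP did not pass (0.0814). With line as block, 1 rose and 0 fell without clone 1, and 0 passed without clone 2.

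Of 10 measured genes of the route from interferon-γ to CIITA, 3 rose, 1 fell and 6 did not pass, with a median of -0.0042. Over all genes the fit called 17.6% as higher, 21.7% as lower and 39.3% in either direction, with a median of -0.010. IRF1, a transcription factor acting on CIITA, went from 27.0 to 35.7 FPKM in wild type, 29.6 to 53.1 in clone 1 and 44.1 to 53.8 in clone 2 (0.50 ± 0.10, SE, n = 3 lines, limma with line as block, adjusted p = 0.0161). IRF2 rose by 0.37 ± 0.06 (adjusted p = 0.00965) and the kinase gene JAK1 by 0.36 ± 0.04 (adjusted p = 0.00226). IRF2 did not pass without clone 1 (0.0509). PTPN2, a phosphatase that restrains JAK signalling, fell by 0.50 ± 0.04 (adjusted p = 0.00165), lower in 3 of 3 lines.

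Without clone 1 the list held 2 rises and 1 fall, and without clone 2 it held 3 and 1. Both receptor genes were expressed and did not pass, IFNGR1 at -0.041 ± 0.06 and IFNGR2 at -0.077 ± 0.04. IFNG itself was listed at 0 in every library, and SOCS1, a feedback inhibitor, did not exceed 0.155 FPKM. With clone as block 4 genes of this list rose and 1 fell.

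Among 9 measured genes tied to silencing of CIITA, 1 rose, 4 fell and 4 did not pass, with a median of -0.099. The same fit called 17.6% of all genes as higher and 21.7% as lower, with a median of -0.010. The histone deacetylase gene HDAC2 went from 61.1 to 41.1 FPKM in wild type, 59.3 to 40.8 in clone 1 and 55.7 to 38.5 in clone 2 (-0.54 ± 0.03, SE, n = 3 lines, limma with line as block, adjusted p = 0.00127). MYC fell by 0.54 ± 0.04 (adjusted p = 0.00147) and SUZ12, a subunit of the PRC2 complex, fell by 0.32 ± 0.05 (adjusted p = 0.00568). DNMT3A, a DNA methyltransferase, rose by 0.22 ± 0.06 (adjusted p = 0.0364), a call lost without clone 1 (0.0781), without clone 2 (0.134) and with clone as block (0.117). With clone as block 0 of these genes rose and 3 fell, as in the fits with line as block without clone 1 or without clone 2. PRDM1, the repressor of CIITA in plasma cells, had a mean under 1 FPKM and was not tested. It was listed at 0.398 and 0.876 FPKM in wild type, at 0.267 and 0.408 in clone 1, and at 0.361 and 1.09 in clone 2. These values were higher after knockdown in 3 of 3 lines, as were 31.6% of all genes tested. The groups did not overlap, as in 12.6% of all genes tested with knockdown above control. That separation rests on 0.408 FPKM in the clone 1 knockdown library against 0.398 in the wild-type control library. At such low levels the direction is a description only.

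Peptide-loading proteases and endosomal genes were the list with the most calls upwards, 8 of 14, with 1 lower and 5 not passing and a median of 0.17 against -0.010 over all genes. Of all genes, 17.6% were called higher in that fit and 21.7% lower. CTSS, the cathepsin S that trims CD74, went from 21.4 to 26.6 FPKM in wild type, 12.0 to 22.9 in clone 1 and 18.04 to 26.3 in clone 2 (0.57 ± 0.11, SE, n = 3 lines, limma with line as block, adjusted p = 0.0120). CTSH rose by 0.47 ± 0.04 (adjusted p = 0.00172), CTSD by 0.46 ± 0.03 (adjusted p = 0.00138) and the tetraspanin gene CD82, a partner of DM, by 0.41 ± 0.03 (adjusted p = 0.00169). The one that fell was IFI30, the lysosomal thiol reductase, by 0.39 ± 0.04 (adjusted p = 0.00235), named after its value was seen. CIITA was at its highest in clone 1, but CTSS was lowest there under control siRNA. Without clone 1, 5 of the list rose and 1 fell, and without clone 2 it was 6 and 1.

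**Figure D5:**
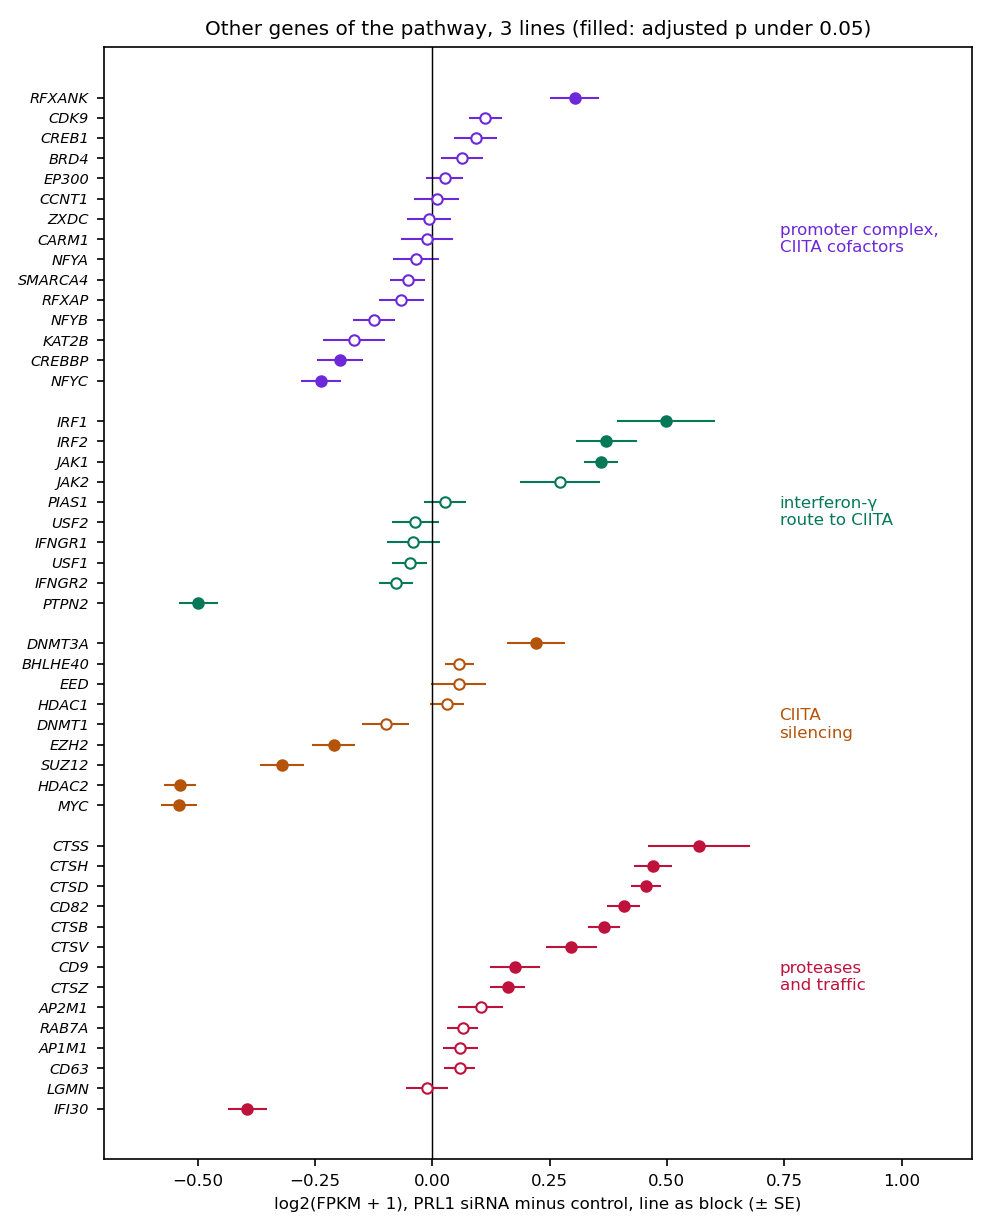
Change in log2(FPKM + 1) after PRL1 siRNA with line as block, with bars for ± SE over 3 lines, for genes of 4 lists with a mean of at least 1 FPKM; filled points have an adjusted p under 0.05. Proteases and endosomal genes lie mostly right of 0 with IFI30 at -0.39, and the silencing list has HDAC2 and MYC at -0.54.

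The ubiquitin ligases that remove class II from the surface moved apart. MARCHF8 fell by 0.29 ± 0.05 (SE, n = 3 lines, limma with line as block, adjusted p = 0.00701) and MARCHF9 rose by 0.29 ± 0.07 (adjusted p = 0.0274), the latter lost without clone 1 (0.126) and with clone as block (0.0693). MARCHF1, the ligase of dendritic and B cells, did not exceed 0.179 FPKM. Among 5 measured genes of costimulation and adhesion, 2 rose, in a fit that called 17.6% of all genes as higher. CD58 rose by 0.44 ± 0.05 (adjusted p = 0.00280), and CD40, a receptor of antigen-presenting cells, rose by 0.62 ± 0.11 (adjusted p = 0.00904). CD40 did not follow class II between lines, since it was at 3.05 and 4.85 FPKM in wild type and 3.17 and 6.77 in clone 2 but at 0.0175 and 0.366 in clone 1, the line with the most class II. CD80 and CD86 stayed below 0.445 FPKM.

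Epithelial and kidney genes moved both ways, 4 rising and 6 falling of 11. Over all genes 17.6% were called higher and 21.7% lower in the fit with line as block. CDH16, the kidney cadherin, rose by 0.82 ± 0.10 (SE, n = 3 lines, limma with line as block, adjusted p = 0.00316), PAX8 by 0.57 ± 0.05 (adjusted p = 0.00166) and KRT19 by 0.36 ± 0.04 (adjusted p = 0.00341), while the tight junction gene OCLN fell by 0.24 ± 0.05 (adjusted p = 0.0132). OCLN did not pass without clone 1 (0.0664) or without clone 2 (0.0639), and in both of these fits 3 of the list rose and 0 fell. The part of such shifts in the class II values was not tested.

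The genes whose levels ran most like the members were sought among 409 other named genes, by Pearson's r over the 6 libraries with the mean scaled profile of the 8 members. The libraries share lines and siRNAs, so r describes likeness only. S100A2, a calcium-binding protein of epithelia, came first (r = 0.981), at 45.1 FPKM after knockdown against 28.9 in wild type, at 122 against 66.7 in clone 1, and at 91.7 against 32.7 in clone 2. HLA-DRB1 followed (r = 0.946), then the chemokine gene CCL2 (0.920), the ubiquitin hydrolase gene UCHL1 (0.899) and the epithelial membrane protein gene PROM2 (0.890). As with DLA-DRA, the control library of clone 1 lay above the wild-type knockdown library for S100A2, HLA-DRB1, CCL2 and PROM2, but not for UCHL1.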

How the data were processed

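RNA came from miRNeasy columns and went into TruSeq stranded mRNA libraries, per the labels' protocols. Per the file headers the authors deposited FPKM, 1 value per symbol and library. Cufflinks 2.2.1, Cuffdiff and HISAT2 2.1.0 are the tools in the submitters' processing notes. Build, annotation and strand setting: not given in the sources used. Overlapping genes may therefore share fragments, and no coordinates are printed. FPKM are not counts, so limma 3.58.1 (R 4.3.3, intensity trend) was run on log2(FPKM + 1), which understates changes of low genes, for the 12125 genes averaging at least 1 FPKM, with Benjamini-Hochberg adjustment over all of them and a threshold of 0.05. The planned knockdown fit had 4 groups and no block. It called 0 genes. Libraries of a line come from the same cells, and deviations from group means of same-clone libraries correlated with r = 0.595. The alternative fit with line as block uses this pairing and was read with the outcome of the planned fit known. The words "rose" and "fell" refer to the fit with line as block. Nothing says that libraries were separate cultures, so p-values may measure technical spread. Scripts were tested on simulated data.

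Of the symbols, 38797 matched RefSeq names, all 10 members among them. Relative depth came from the commonest ratio of values below 0.1 FPKM. Members and gene lists were chosen with earlier results of these data known. Genes named were all members, up to 4 per list with the largest change among those that passed, or else the highest levels, and the 5 most like the members with an SD of at least 0.5. TAP, PSMB and other neighbours were added for their position. Promoter motifs and other sequences were not analysed here, and a pair of listed genes is not reported here.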

Additional observations from a re-analysis of the deposited data

How the results depend on the processing

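Absolute depth is unknown, each line gave 1 library per siRNA, and the fits have at most 2 residual degrees of freedom. In the unpaired fit of the knockdown 0 of 12125 genes passed. With the clone as replicate block 4037 passed, with the line as replicate block 4762, and 1709 without clone 1 and 2421 without clone 2; leaving out single libraries in the unpaired fit gave 0 throughout. All counts of clones against wild type were 0, except 548 (both siRNAs) and 165 (control siRNA) with no filter, and 11 and 4 without an intensity trend; leaving out single libraries gave 0. A fit of clones against wild type with correlated libraries of a line could not be fitted, and means per line, chosen after seeing the data, also gave 0. Clone 2 against clone 1 called 1760 genes, 4 with no filter, 128 without a siRNA term, and 299 to 2164 without 1 library. Clone 1 against wild type called 3001, 0 with no filter and 241 to 2179 without 1 library, and clone 2 against wild type 3901, 1299 with no filter and 1553 to 3086.

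The 7 members higher in all 3 lines numbered 7 also with a pseudocount of 0.1 and with upper quartile scaling. Signs turned only for differences near 0: RFX5 between the clones (0.0085 with upper quartile scaling, and -0.024 to 0.0059 without 1 library), and DLA-DRA and HLA-DRB1 in clone 2 against wild type, which ran from -0.0035 to 0.23 and from -0.043 to 0.27 without 1 library, below 0 without the clone 2 knockdown library in both and without the wild-type knockdown library (-0.016) in HLA-DRB1. RFX5 in each clone against wild type did not pass with upper quartile scaling (adjusted p = 0.114 and 0.0817). CIITA passed with a pseudocount of 0.1 in clone 2 against clone 1 (adjusted p = 0.0478) and against wild type (0.0377).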

Other observations

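Between DLA-DQB1 and DLA-DOB the RefSeq order holds an unnamed protein-coding locus, LOC100856137, singled out after its values were seen. It was below the level set for testing, at 0.306 FPKM after PRL1 siRNA against 0.0649 under control siRNA in wild type, at 1.77 against 0.421 in clone 1, and at 0.454 against 0.0960 in clone 2. It was higher after knockdown in 3 of 3 lines, as were 31.6% of all genes tested, and clone 1 was above the other lines under each siRNA. At such low levels a few fragments can set a value.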
